A study of Caenorhabditis elegans with 8 samples.

Results

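The genes described here encode the energy sensors AMPK and TOR of Caenorhabditis elegans together with their closest partners. They are aak-1 and aak-2 (catalytic alpha subunits of AMPK), aakb-1 and aakb-2 (its beta subunits), aakg-2 (a gamma subunit), par-4 (the kinase LKB1), let-363 (the TOR kinase), daf-15 (the TOR partner Raptor), rsks-1 (the S6 kinase) and raga-1 (a Rag GTPase). They were picked by name as members of the AMPK, LKB1 and TOR pathways and looked up by the gene symbol of each probe. Of the 10 genes, 9 had a named probe, with 15 probes between them, out of 15078 named genes measured. No probe was named for aakg-2, which was not analysed here.

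AMPK is a heterotrimer of an alpha, a beta and a gamma subunit that binds AMP and ATP through the gamma subunit and is switched on when LKB1 phosphorylates the alpha subunit. TOR complex 1, built on the TOR kinase and Raptor, is active on lysosomes when Rag GTPases signal that amino acids are plentiful, and it drives translation through S6 kinase while holding back autophagy. Both act largely through phosphorylation, which RNA levels do not show. In C. elegans, AMPK and LKB1 are known for rationing fat stores and quieting the germline in the dauer, a non-feeding larva that survives starvation, and daf-15 mutants arrest as larvae that resemble dauers.

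All worms were of the wild-type strain N2 Bristol. Dauers were harvested and purified from liquid culture, dauer exit samples were purified dauers returned for 12 h to plates with the bacterial food OP50, and mix-stage worms came from plates holding all developmental stages. Each of 8 Agilent arrays compared RNA of 1 dauer or 1 dauer exit sample with pooled mix-stage RNA, with 4 arrays for dauers and 4 for dauer exit, and the dye was swapped so that the sample's own RNA was in Cy5 on 2 of the 4 and in Cy3 on the other 2. Every value is the log2 ratio of a stage's own RNA over mix-stage RNA, the mean over a gene's probes, so that 1 is a doubling against mix-stage and -1 a halving. Equal amounts of total RNA were labelled, so the ratios do not give RNA per worm. The authors measured far less total RNA per worm in dauers than in mix-stage worms, and a smaller mRNA share in it. A ratio near 0 therefore does not mean an equal amount per worm. A level cannot be compared between genes on this scale. Whole worms were used, so fewer cells of a type and less RNA per cell cannot be told apart. Replicates were parallel cultures, and p-values measure the spread between them. The number of arrays limits the precision, with a median standard error of 0.31 over all genes for dauer minus dauer exit.

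The stages were checked with marker genes. Of 5 dauer larva markers, only the small heat shock gene hsp-12.6 passed the test as higher in dauers, by 5.30 against dauer exit and 4.80 against mix-stage, while cut-1, col-2, sod-3 and icl-1 did not. Vitellogenin genes, which make yolk in the adult intestine, were lower than mix-stage for 6 of 6 genes in both stages. Of 12 germline and oocyte markers, 8 were lower than mix-stage in dauers and 6 in dauer exit, and the mean of the 12 lay between -1.95 and -1.41 on the dauer arrays and between -2.07 and -0.99 on the dauer exit arrays. The part of these lists' difference in the comparisons with mix-stage below was not tested. In limma, 4.01% of all genes passed an adjusted p under 0.05 between dauers and dauer exit, 18.5% between dauers and mix-stage and 9.52% between dauer exit and mix-stage.

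None of the 9 AMPK and TOR genes passed that test in any of the 3 comparisons. At an unadjusted p under 0.05, 0 genes passed for dauers against dauer exit, 1 for dauers against mix-stage (raga-1, lower) and 2 for dauer exit against mix-stage (aak-1 and aakb-1, both lower). The same shares of all genes were 15.5%, 28.6% and 20.8%. Arrays of dauers and dauer exit overlapped for 9 of 9 genes, against a background of 9.55% of all genes whose arrays did not overlap. By the exact two-sided permutation test 0 of 9 genes passed, with a smallest p of 0.0571 (aak-1) where 70 splits of the arrays allow 0.0286. The 72 ratios of these genes are means over a gene's probes. Of them, 66 (91.7%) lay between -1 and 1, compared with 81.9% of the ratios of all genes. Some single probes went further, such as probe 1 of daf-15 (-1.90) and of aakb-1 (-1.66) on dauer array 3 and of rsks-1 (1.34) on dauer array 2. Among all 15078 genes, 10517 had 1 probe. The part of probe averaging in the gap between the shares was not tested.

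The size of change that the data leave room for is given by the 95% intervals. The interval of dauer minus dauer exit lay within 1 log2 unit on either side of 0 for 6 of 9 genes (49.7% of all genes), that of dauer minus mix-stage for 6 (63.1%) and that of dauer exit minus mix-stage for 7 (68.9%). For these genes a doubling or a halving lay outside the interval of the probe mean. Single probes left more room in dauer minus dauer exit. Every probe of aakb-1 reached past 1 log2 unit (-1.27, 1.26 and 1.64). So did probe 1 of aak-1 (1.23), of rsks-1 (1.80) and of daf-15 (-1.54 to 1.41). The other probes of aak-1, rsks-1 and daf-15 stayed within 1 log2 unit in that comparison. Against mix-stage, some probes of genes with several probes also reached past 1 log2 unit. In dauers these were probes 1 and 2 of rsks-1 (1.26 and -1.11) and probe 1 of daf-15 (-1.61). In dauer exit they were probe 1 of aak-1 (-1.19), probes 2 and 3 of aakb-1 (-1.31 and -1.38) and probe 1 of daf-15 (-1.54). The intervals of aak-2, aakb-2 and raga-1 between the stages each reached past 1 log2 unit on one side, toward lower dauer values for aak-2 (-2.11) and raga-1 (-1.50) and toward higher ones for aakb-2 (1.51). The median log2 fold change of the 9 genes was -0.02, -0.05 and -0.14 in the 3 comparisons, beside 0.03, -0.05 and -0.08 over all genes tested.

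**Figure D1:**
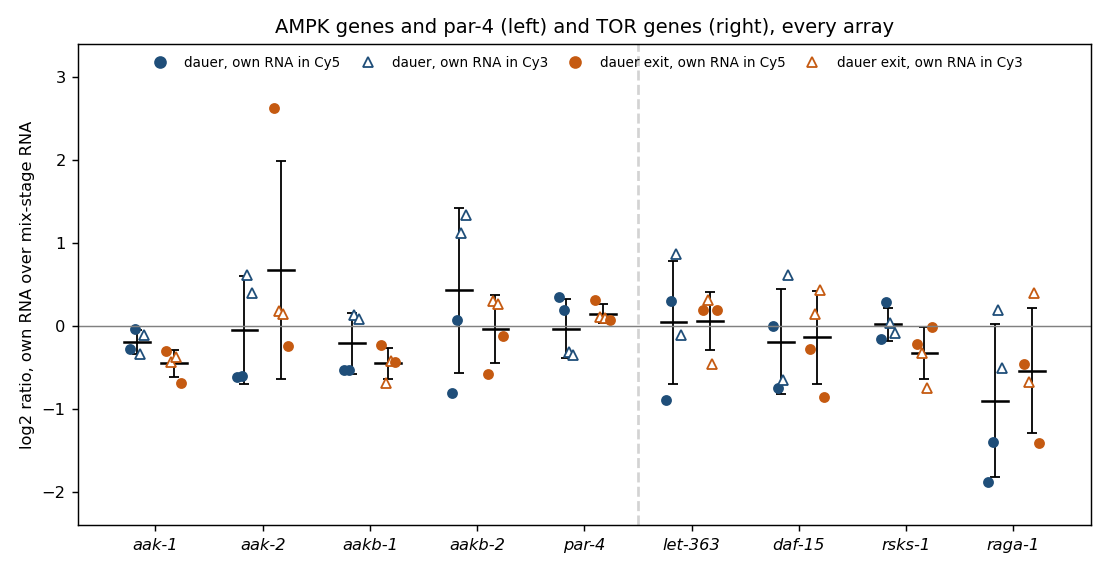
Log2 ratio of own RNA over mix-stage RNA (vertical axis) of the 9 genes on each of the 8 arrays, with filled circles for own RNA in Cy5, open triangles for own RNA in Cy3, and the mean and SD of each stage (n = 4). Dauer and dauer exit arrays overlap for every gene, the highest single ratio is aak-2 on 1 dauer exit array (2.63), and the lowest is raga-1 on 1 dauer array (-1.88).

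Among the catalytic subunits, aak-1 had 3 probes, of which probes 2 and 3 ran opposite over the 8 arrays (Pearson's r = -0.775, a description). The mean of the 3 probes, taken as the value of aak-1, varied little between arrays. Its ratios were -0.28, -0.03, -0.34 and -0.11 on dauer arrays 1 to 4 and -0.31, -0.43, -0.38 and -0.69 on dauer exit arrays 1 to 4. All 8 arrays lay below 0 in this mean of probes, while each single probe was above 0 on some arrays. The dauer exit arrays were mostly lower than the dauer arrays, with an overlap of dauer array 3 and dauer exit array 1. The mean was -0.19 ± 0.14 in dauers and -0.45 ± 0.17 in dauer exit (SD, n = 4). Dauer minus dauer exit was 0.26 (SE 0.19, 95% interval -0.17 to 0.69, limma adjusted p = 0.636). Against mix-stage, dauer exit gave -0.45 (SE 0.14, interval -0.76 to -0.15, adjusted p = 0.0724) and dauers -0.19 (SE 0.14, interval -0.49 to 0.11, adjusted p = 0.439). The dauer exit value passed the threshold in 3 other settings, with the arrays set to a common scale, with the median of probes, and with a fit per probe. It lay further from it when arrays were centred (-0.35, adjusted p = 0.185), with a replicate block (adjusted p = 0.175) and without single dauer exit arrays (adjusted p = 0.118 to 0.267).

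aak-2, the alpha subunit known for its role in dauer survival and in lifespan, gave -0.61, -0.61, 0.62 and 0.40 on the dauer arrays and 2.63, 0.18, 0.14 and -0.24 on the dauer exit arrays. Dauer arrays 1 and 2, with own RNA in Cy5, were low and arrays 3 and 4, in Cy3, were high, while dauer exit array 1 stood alone above all others. The mean was -0.05 ± 0.65 in dauers and 0.68 ± 1.31 in dauer exit (SD, n = 4). Dauer minus dauer exit was -0.73 (SE 0.61, interval -2.11 to 0.65, adjusted p = 0.698), and without dauer exit replicate 1 it was -0.08 (adjusted p = 0.969). Dauer exit minus mix-stage was 0.68 (interval -0.30 to 1.65, adjusted p = 0.463) and became 0.03 without that replicate (adjusted p = 0.992). On the same array the mean of the yolk genes was -1.57, against -5.96 to -4.71 on the other 3 dauer exit arrays, and the part of this in the aak-2 value was not tested.

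The beta subunits hold the AMPK trimer together. aakb-1 gave -0.53, -0.53, 0.13 and 0.09 in dauers and -0.23, -0.69, -0.43 and -0.44 in dauer exit, so that the dauer arrays split by dye while 4 of 4 dauer exit arrays lay below 0. This holds for the mean of its 3 probes. Probe 1 lay above 0 on dauer exit arrays 1 and 4 (0.39 and 0.18). The dauer exit means of probes 1 to 3 were -0.02, -0.67 and -0.66. Dauer minus dauer exit was 0.24 (SE 0.24, interval -0.30 to 0.77, adjusted p = 0.761). Dauer exit minus mix-stage was -0.45 (SE 0.17, interval -0.83 to -0.07), with an adjusted p of 0.151, and dauers gave -0.21 (SE 0.17, adjusted p = 0.510). aakb-2 gave -0.81, 0.07, 1.12 and 1.33 in dauers and -0.59, 0.30, 0.26 and -0.12 in dauer exit. Its dauer arrays ranged more widely than its dauer exit arrays and enclosed all of them. The mean was 0.43 ± 1.00 in dauers and -0.04 ± 0.41 in dauer exit (SD, n = 4), and the difference of 0.46 did not pass the test (SE 0.46, interval -0.58 to 1.51, adjusted p = 0.762). For aakb-2 the values against mix-stage were 0.43 in dauers (SE 0.33, adjusted p = 0.485) and -0.04 in dauer exit (adjusted p = 0.981). Without single arrays the dauer value of aakb-2 ranged from 0.13 (without dauer replicate 4) to 0.84 (without dauer replicate 1, adjusted p = 0.0931), and dauer minus dauer exit from 0.16 to 0.88 without the same replicates.

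par-4 encodes the LKB1 kinase that activates AMPK and is also needed for the asymmetric first divisions of the embryo. Its ratios were 0.35, 0.19, -0.32 and -0.35 on the dauer arrays and 0.31, 0.11, 0.10 and 0.07 on the dauer exit arrays. Dauer arrays 1 and 2 lay at or above most dauer exit arrays and arrays 3 and 4 below all of them, while the 4 dauer exit arrays were close together just above 0. Dauer minus dauer exit was -0.18 (SE 0.23, interval -0.69 to 0.33, adjusted p = 0.825). Against mix-stage, dauers gave -0.03 (interval -0.39 to 0.33, adjusted p = 0.945) and dauer exit 0.15 (interval -0.21 to 0.51, adjusted p = 0.738).

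The TOR kinase itself, let-363, gave -0.89, 0.30, 0.87 and -0.11 in dauers and 0.19, 0.31, -0.47 and 0.19 in dauer exit. Dauers spread on both sides of 0 and 3 of 4 dauer exit arrays lay slightly above it. The stage means of let-363 were 0.04 ± 0.74 and 0.06 ± 0.35 (SD, n = 4), which put dauer minus dauer exit at -0.02 (SE 0.37, interval -0.85 to 0.81, adjusted p = 0.993). daf-15, which encodes Raptor, the subunit that brings substrates to TOR, gave 0.00253, -0.74, -0.65 and 0.62 in dauers and -0.28, 0.15, 0.43 and -0.86 in dauer exit, with both stages on both sides of 0. Its means were -0.19 ± 0.63 and -0.14 ± 0.56 (SD, n = 4), and the difference was -0.05 (SE 0.38, interval -0.91 to 0.80, adjusted p = 0.977). Against mix-stage the adjusted p of these 2 genes lay between 0.749 and 0.959.

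rsks-1, the S6 kinase that TOR phosphorylates and whose loss extends lifespan in worms, gave -0.16, 0.28, 0.04 and -0.09 in dauers and -0.22, -0.33, -0.75 and -0.01 in dauer exit. Its dauer arrays scattered around 0, and the 4 dauer exit arrays were at or below it, with an overlap through dauer exit array 4. Dauer minus dauer exit was 0.34 (SE 0.22, interval -0.16 to 0.85, adjusted p = 0.574), the lowest adjusted p of the 9 genes in this comparison. Dauer exit minus mix-stage was -0.33 (SE 0.16, interval -0.68 to 0.03, adjusted p = 0.294), and dauer minus mix-stage was 0.02 (adjusted p = 0.971). That dauer value averages 0.57 from probe 1 and -0.53 from probe 2. In the gene table of assembly WBcel235, rsks-1 lies next to aakb-2 with 0 protein-coding genes between them.

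raga-1, the worm RagA that carries the amino acid signal to TOR, had the lowest ratios of the group. It gave -1.88, -1.40, 0.19 and -0.51 in dauers and -0.46, -0.68, 0.40 and -1.42 in dauer exit, so that 3 of 4 arrays in each stage lay below 0 and 1 array, in Cy3, lay above. The mean was -0.90 ± 0.92 in dauers and -0.54 ± 0.75 in dauer exit (SD, n = 4). Against mix-stage dauers gave -0.90 (SE 0.36, interval -1.70 to -0.10), with an adjusted p of 0.129, and dauer exit gave -0.54 (SE 0.36, interval -1.34 to 0.27, adjusted p = 0.488). The difference between the stages was -0.36 (SE 0.51, interval -1.50 to 0.78, adjusted p = 0.846). The dauer value passed the threshold when dye was a term in the fit (adjusted p = 0.0366), on Cy5 arrays alone (-1.64, adjusted p = 0.0301) and without dauer replicate 3 (-1.26, adjusted p = 0.0350), while the Cy3 arrays alone gave -0.16. It was -0.57 without dauer replicate 1 (adjusted p = 0.434), -0.73 without dauer replicate 2 (adjusted p = 0.343) and -0.77 on a common scale (adjusted p = 0.214).

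Ordered by stage mean, dauers ran from raga-1 (-0.90) through aakb-1, daf-15, aak-1, aak-2, par-4, rsks-1 and let-363 to aakb-2 (0.43), and dauer exit from raga-1 (-0.54) through aak-1, aakb-1, rsks-1, daf-15, aakb-2, let-363 and par-4 to aak-2 (0.68). In neither order did neighbouring genes differ by more than the larger of their SDs. The order is one of differences from mix-stage, not of levels. The median SD over arrays was 0.63 in dauers and 0.35 in dauer exit for the 9 genes, compared with 0.43 and 0.36 for all genes.

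**Figure D2:**
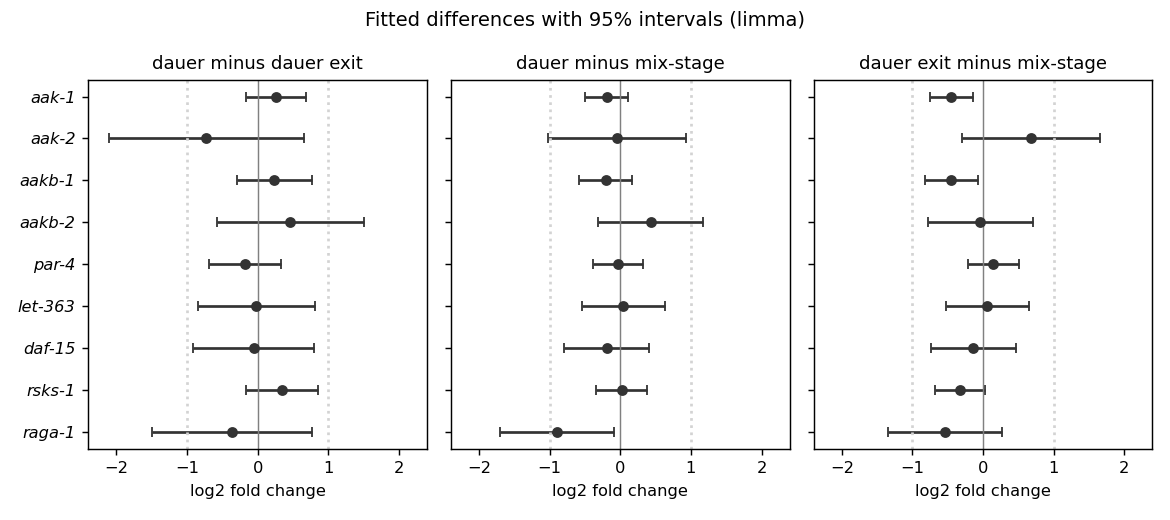
Log2 fold change (horizontal axis) of each of the 9 genes in the 3 comparisons, with points for the limma estimate and lines for its 95% interval. Intervals that do not cross 0 are those of raga-1 in dauers against mix-stage (-1.70 to -0.10) and of aak-1 (-0.76 to -0.15) and aakb-1 (-0.83 to -0.07) in dauer exit against mix-stage, none of which passed adjustment over all genes.

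The median absolute dye term (own RNA in Cy5 minus Cy3) of the 9 genes was 0.26, against 0.33 over all genes. With a dye term in the fit, own RNA read lower in Cy5 than in Cy3 for raga-1 (dye term -1.14, SE 0.35, adjusted p = 0.190) and for aakb-2 (dye term -1.12, SE 0.29, adjusted p = 0.154). These 2 genes passed at an unadjusted p under 0.05 (18.5% of all genes did), and 0 of 9 genes passed after adjustment, as did 0% of all genes. For raga-1 the Cy5 and Cy3 means were -1.64 and -0.16 in dauers and -0.94 and -0.14 in dauer exit. For aakb-2 they were -0.37 and 1.23 in dauers and -0.35 and 0.28 in dauer exit. A dye effect would cancel in the stage means, since each stage held 2 arrays of each dye, but it would widen their SD. Arrays of the 2 dyes also held different cultures, so dye and culture cannot be told apart here. The part of dye in the spread was not tested.

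Within a dye only 2 arrays stood on each side, and 0 of 9 genes passed between dauers and dauer exit in limma on the arrays of either dye alone. Of all 15078 genes, 0 passed in Cy5 and 291 in Cy3, so these counts cannot tell the 9 genes from the rest. At an unadjusted p under 0.05, 0 of the 9 passed in Cy5 and 2 in Cy3, and the share of all genes is not given here. Dauer minus dauer exit was 0.34 on Cy5 arrays and 0.18 on Cy3 arrays for aak-1, 0.17 and 0.51 for rsks-1, and -0.70 and -0.02 for raga-1, which kept their sign. It changed sign between the dyes for the other 6 of 9 genes, among them aak-2 (-1.80 and 0.35), aakb-1 (-0.19 and 0.67) and par-4 (0.08 and -0.44).

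Several probes of a gene often did not move together, and the gene values average them. Over the 8 arrays probe 1 of aakb-1 ran opposite to probes 2 and 3 (Pearson's r = -0.70 and -0.83, a description). So did probe 2 of aak-1 to probes 1 and 3 (-0.40 and -0.775) and the 2 probes of rsks-1 to each other (-0.63). Probes 2 and 3 of aakb-1 (0.90) and probes 1 and 3 of aak-1 (0.79) ran alike. The 3 probes of aakb-1 gave dauer minus dauer exit of -0.26, 0.35 and 0.63, the first against the other two, and probes 1 and 3 differed by up to 3.02 on a single array although they carry the same accession. The 3 probes of aak-1 gave 0.65, -0.19 and 0.33. For aak-1, probe 1 alone passed the test in dauer exit against mix-stage (-0.78, SE 0.18, adjusted p = 0.0343 over all probes), with -0.58, -0.58, -0.77 and -1.18 on the 4 arrays, and its other probes gave -0.21 and -0.37. That probe was not matched by accession to the WBcel235 gene table, while probes 2 and 3 were. The run on matched genes still kept probe 1. The probes of rsks-1 differed in sign (0.83 and -0.14), and those of daf-15 lay close together in this difference (-0.07 and -0.04) while their ratios were hardly correlated over the 8 arrays (Pearson's r = 0.09, a description). The other 5 genes had 1 probe each.

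**Figure D3:**
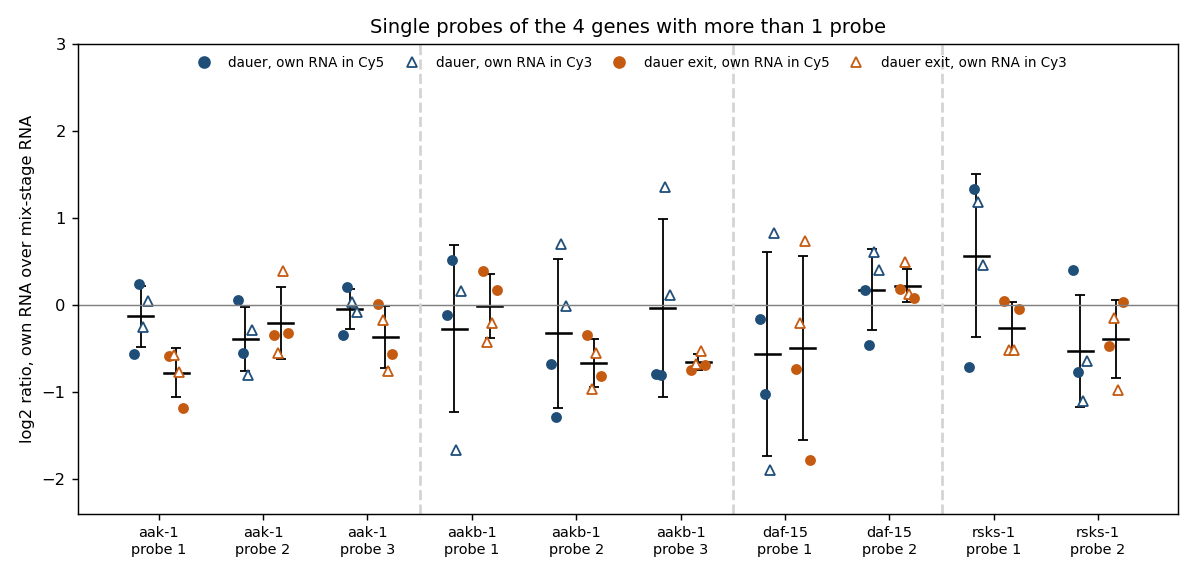
Log2 ratio of own RNA over mix-stage RNA (vertical axis) for each of the 10 probes of aak-1, aakb-1, daf-15 and rsks-1, per array, with circles for own RNA in Cy5, triangles for own RNA in Cy3, and the mean and SD of each stage (n = 4). Probes of one gene differ in direction, as for aakb-1 (dauer minus dauer exit of -0.26, 0.35 and 0.63).

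The wider pathway was read from a list of 42 further genes, of which 27 had a named probe. These were 4 LKB1 partners, 4 AMPK-related kinases, 1 partner of the TOR complex, 2 genes around Rag and Rheb, 14 TOR outputs in translation, growth and autophagy, and 2 AMPK outputs. Between dauers and dauer exit 0 of 27 passed in limma (4.01% of all genes did), and 1 passed at an unadjusted p under 0.05. Against mix-stage 1 of 27 was lower in dauers and 1 of 27 lower in dauer exit, in both cases pod-2, and 0 were higher, where 18.5% and 9.52% of all genes passed. At an unadjusted p under 0.05, 6 genes passed in dauers (1 higher and 5 lower) and 4 in dauer exit (1 higher and 3 lower), which is 22.2% and 14.8% of the list beside 28.6% and 20.8% of all genes. The median log2 fold change of the 27 genes was -0.07, -0.13 and -0.16 in the 3 comparisons.

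pod-2 encodes acetyl-CoA carboxylase, which makes the malonyl-CoA for fatty acid synthesis and which AMPK inhibits by phosphorylation in mammals. Its ratios were -1.004, -1.59, -1.55 and -1.31 in dauers and -0.45, -0.59, -0.70 and -1.45 in dauer exit, below mix-stage on 8 of 8 arrays. In dauers pod-2 fell by 1.36 (SE 0.19, interval -1.79 to -0.94, adjusted p = 0.000959), and in dauer exit by 0.80 (SE 0.19, interval -1.23 to -0.37, adjusted p = 0.0294). The stages differed by -0.57 (SE 0.27), which did not pass (adjusted p = 0.363). The dauer exit call was lost when arrays were centred (adjusted p = 0.0607), with a replicate block (0.0533), in the fit per probe, and without any of dauer exit replicates 2, 3 or 4 (0.0842, 0.0780 and 0.122) or dauer replicate 4 (0.0502). It was also lost on the arrays of either dye alone (0.201 in Cy5 and 0.131 in Cy3), and the dauer call was lost in Cy5 alone (0.0612).

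Other genes of the list did not pass in the reported fit. In dauer exit against mix-stage, ifg-1 passed in place of pod-2 when arrays were centred, and ife-3 on Cy5 arrays alone. The initiation factor scaffold ifg-1 (eIF4G), chosen for mention after its values were seen, was the 1 listed gene of 27 (9.55% of all genes) whose stages did not overlap, with -0.39, -0.29, 0.02 and -0.44 in dauers and 0.56, 0.32, 0.24 and 0.49 in dauer exit. All 4 dauer exit arrays of ifg-1 lay above all 4 dauer arrays, but dauer minus dauer exit of -0.68 (SE 0.20, interval -1.12 to -0.23) had an adjusted p of 0.108. Among genes chosen likewise after their values were seen, sgk-1, a kinase downstream of TOR complex 2, gave -1.18 in dauers against mix-stage (adjusted p = 0.0928). The cap-binding proteins ife-2 and ife-3 gave -1.13 and -0.92 (adjusted p = 0.111 and 0.0988), and mop-25.3, a relative of the LKB1 partner MO25, gave -1.01 (adjusted p = 0.116). Their Cy5 and Cy3 dauer means were -2.01 and -0.35 for sgk-1, -2.18 and -0.09 for ife-2 and -1.59 and -0.25 for ife-3. For mop-25.3, dauer array 3 gave -2.66 and dauer array 2 gave 0.06. sgk-1 and ife-3 passed with a dye term and with a replicate block, and ife-2 with a dye term. The 1 gene higher in dauers at an unadjusted p under 0.05 was unc-82 (0.63, adjusted p = 0.140).

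**Figure D4:**
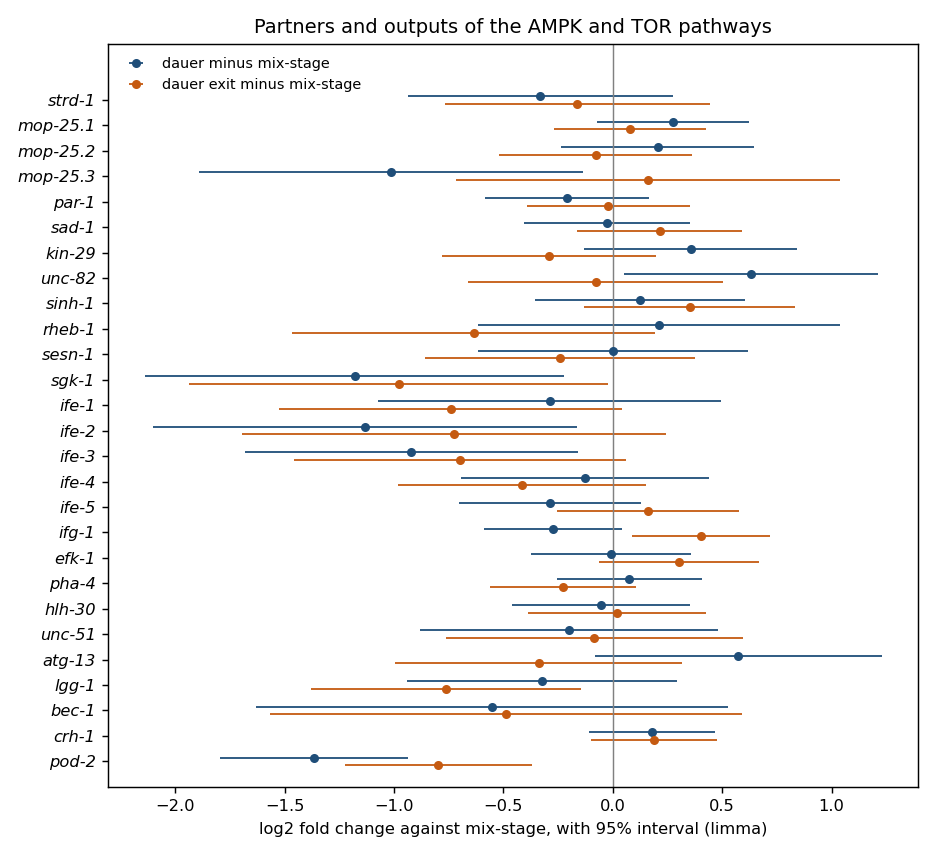
Log2 fold change against mix-stage (horizontal axis) of the 27 listed genes with a probe, in dauers (blue) and dauer exit (orange), with 95% intervals from limma. pod-2 lies lowest in dauers (-1.36) and is the 1 gene past the threshold in either stage.

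Genes whose ratios ran most alike over the 8 arrays were named for 4 of the genes, by Pearson's r among 7327 genes with a standard symbol, as a description over arrays that share the mix-stage pool and the dyes. For aak-2 these were flp-13, a neuropeptide gene (r = 0.992), skr-17, a Skp1-related gene (0.990), and oac-46 (0.988), and r was 0.961, 0.942 and 0.935 over the 7 arrays without dauer exit replicate 1. For par-4 they were srh-80 (0.983), srj-25 (0.977) and sdz-36 (0.959). For let-363 they were snf-11, a GABA transporter gene (0.950), uev-2 (0.945) and acdh-2 (0.879). For daf-15 they were math-4 (0.958), vbh-1, a DEAD-box helicase gene (0.949), and prx-5, a peroxisomal import receptor gene (0.935). With 8 points, 84 genes exceeded an r of 0.9 with aak-2, 15 with par-4, 2 with let-363 and 8 with daf-15.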

How the data were processed

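Each array's deposited column holds the log2 of Cy5 signal divided by Cy3 signal. Per the methods, the authors scanned with GenePix and, in limma (version not given in the sources used here), corrected background by normexp and ran loess within arrays, using weights that differed between probes and spike-in controls. Spot intensities and slides were not used here, so a gene near background cannot be told from an unchanged one. Equal amounts of total RNA were labelled. The labels and the methods give different temperatures for the dauer culture. The methods give a higher temperature for the liquid culture of dauers than for the plates of mix-stage and dauer exit worms. After purification, dauers were held overnight in salt solution at the temperature of the plates, before RNA extraction or return to food. Dauer exit worms thus shared the liquid culture and purification. Culture conditions and stage therefore cannot be told apart in any of the comparisons.

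Deposited medians lay between -0.09 and 0.14. Arrays of opposite dye correlated at -0.70 to -0.05 and of equal dye at 0.22 to 0.74, and each ratio was turned by the labelled dyes. Of 45220 features, 44123 had values. Symbols came from the platform annotation for 27263 probes. Of these, 19293 were matched by accession to the WBcel235 gene table (98 renamed) and 7970 kept their symbol. Probes were averaged per gene. One coefficient per stage was fitted over all 15078 genes and 8 arrays with lmFit and eBayes (limma 3.58.1, R 4.3.3), tested first on simulated data, with Benjamini-Hochberg adjustment over all genes and a threshold of 0.05. The mix-stage pool counts as 1 control sample, so comparisons with it leave out its own spread. Differences between stages were also given an exact permutation test.

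The members and lists were chosen with earlier results of these data known. All members were named, and of the pathway list those called (up to 4 per direction against mix-stage), beside genes stated as chosen afterwards. The 3 most similar genes were named for 4 members. Alternatives changed centring, scale, probe summary, dye, replicate block, the variance prior, the gene filter and the arrays kept.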

Additional observations from a re-analysis of the deposited data

Results flagged for a closer look

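In 2 of the 18 sets of 4 arrays examined (9 genes in each of 2 stages), 1 array stood apart from the others by Dixon's criterion, which sets the gap to its nearest neighbour against the whole range. Chance alone picks out about 1 in 20 such sets. For aak-2, dauer exit replicate 1 was highest at 2.63, with a gap of 0.855 of the range. For let-363, dauer exit replicate 3 was lowest at -0.47, with a gap of 0.849 of the range.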

How the results depend on the processing

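Under alternatives to the fit, 459 values of the 9 genes were recomputed, of which 415 kept their direction and their side of the threshold, 6 crossed it and 38 changed sign, in 15 of 27 gene comparisons. The run on genes matched to the gene table held no value for aakb-1, par-4 and raga-1. Between dauers and dauer exit the count of AMPK and TOR genes passing stayed 0 in every alternative run. In dauers against mix-stage it was 1 with a dye term, 1 on Cy5 arrays alone (raga-1 in both) and 1 on Cy3 arrays alone (aakb-2, 1.23, adjusted p = 0.0215), and 0 to 1 when single arrays were left out. In dauer exit against mix-stage it was 1 (aak-1) on a common scale (adjusted p = 0.0452), with the median of probes (adjusted p = 0.0430) and per probe. Centring raised all dauer exit ratios by 0.10 and dauer ratios by 0.08. Same-numbered arrays of the 2 stages deviated together with correlations of 0.07, -0.05, 0.23 and -0.15. Arrays numbered 1 and 3 shared a dye between the stages and those numbered 2 and 4 did not. These correlations therefore cannot show whether the replicate numbers pair the arrays. Per the methods, purified dauers served both for RNA and for starting the dauer exit cultures. With a replicate block 0 of the 9 genes passed in each comparison, and 489, 2643 and 1393 of all genes did. The pathway list count in dauers against mix-stage was 5 with a dye term, 3 with the replicate block, 0 among genes matched to the gene table (which leave out pod-2), 4 in Cy5 alone, 4 in Cy3 alone, 2 per probe and 1 to 4 without single arrays. In dauer exit it was 0 with the replicate block, among matched genes, in Cy3 alone and per probe, and 0 to 1 without single arrays, and the 1 gene passing was ifg-1 after centring and ife-3 in Cy5 alone in place of pod-2. The number of all genes passing without single arrays ranged from 287 to 742, from 2052 to 3011 and from 695 to 1861 in the 3 comparisons, and was 0, 2429 and 621 in Cy5 alone and 291, 1796 and 674 in Cy3 alone. None of the following sign changes concerns a value past the threshold in the reported fit, and their cause was not tested. On Cy3 arrays alone, dauer minus dauer exit was 0.35 for aak-2 and 0.46 for let-363, dauer minus mix-stage 0.51 for aak-2, 0.11 for aakb-1 and -0.0249 for rsks-1, and dauer exit minus mix-stage 0.28 for aakb-2, -0.0765 for let-363 and 0.29 for daf-15. On Cy5 arrays alone, dauer minus dauer exit was -0.19 for aakb-1, -0.0203 for aakb-2, 0.0791 for par-4 and 0.20 for daf-15, and dauer minus mix-stage -0.37 for aakb-2, 0.27 for par-4 and -0.29 for let-363. After centring, dauer minus mix-stage was 0.0305 for aak-2 and 0.0491 for par-4, and dauer exit minus mix-stage 0.0656 for aakb-2. On a common scale dauer minus dauer exit of daf-15 was 0.0128. Without single arrays, dauer minus mix-stage ranged from -0.27 to 0.14 for aak-2, -0.16 to 0.0735 for par-4, -0.23 to 0.35 for let-363 and -0.0699 to 0.0780 for rsks-1. Dauer exit minus mix-stage ranged from -0.15 to 0.15 for aakb-2, -0.0251 to 0.23 for let-363 and -0.33 to 0.10 for daf-15, and dauer minus dauer exit from -0.29 to 0.29 for let-363 and -0.32 to 0.14 for daf-15.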
